A study of Mus musculus with 12 samples.

Results

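The antioxidant defence genes are 38 genes that remove superoxide, hydrogen peroxide and lipid peroxides, make and recycle glutathione, or act as stress-inducible protective proteins, and they were measured in mouse hypothalamus. The members were listed by gene symbol, with earlier results of these data known. All 38 had a probe on the Agilent mouse array, with 65 probes in all, and all 38 had at least 1 probe well above background on the 3 arrays of at least 1 group. Of the 65 probes 58 met that condition, and 57 of these 58 were well above background on all 12 arrays. Beside them stood 27308 genes with a probe, of which 18266 were detected and tested. The 12 arrays came from 12 samples of male mice on a C57BL/6 background, 3 in each of 4 groups. The labels give an age of 6 to 7 weeks, which in the study's methods is the age at which swimming began, so the tissue was taken from older mice. WT was the wild-type group at rest, KO was the Asmt knockout group at rest, and the wild-type exercise group (called exercised WT below) and the knockout exercise group, KE, followed a daily swimming programme. Asmt encodes the enzyme that makes melatonin. The knockout line came from founder mice with a 20 bp deletion made with Cas9, backcrossed for 3 generations with wild-type littermates. The Asmt probe was not well above background on any of the 12 arrays, knockout or wild-type, so the array could not check the genotype labels.

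Superoxide dismutases turn superoxide into hydrogen peroxide, which catalase, the glutathione peroxidases and the peroxiredoxins then reduce. Glutathione peroxidases draw on glutathione and peroxiredoxins on thioredoxin, and both carriers are recharged with NADPH by glutathione reductase and the thioredoxin reductases. The transcription factor Nrf2, encoded by Nfe2l2, is held back by Keap1 and, when released under oxidative or electrophilic stress, activates many of these genes through antioxidant response elements in their regulatory regions. Metallothioneins bind zinc and copper and respond to metals and glucocorticoids.

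Spots well above background made up 61.6 to 67.9% of the spots on an array, and no spot was saturated. The 12 arrays were spread over 2 slides. All WT arrays shared slide 1 with KO replicates 1 and 2. KO replicate 3 lay on slide 2 with both swimming groups. Swimming and slide were therefore separated by KO replicate 3 alone, and on slide 2 the exercised WT arrays lay in one row and the KE arrays in the other, so row and genotype cannot be told apart in KE against exercised WT. Hypothalamic markers averaged 12.4 to 12.8 on the log2 scale, while red blood cell markers ranged from 11.6 (KO replicate 1) to 13.0 (KO replicate 2), choroid plexus markers from 6.47 (KO replicate 1) to 7.73 (exercised WT replicate 2) and meningeal markers from 8.60 (KO replicate 3) to 9.62 (KO replicate 2). The hypothalamic mean hid single markers that separated the slides. Sim1 read 4.10 to 5.07 on the slide 1 arrays and 6.21 to 7.23 on the slide 2 arrays, with KO replicate 3 highest. Pmch read 14.45 to 14.69 on slide 1 and 14.76 to 15.30 on slide 2. The other hypothalamic markers overlapped between the slides. All markers listed for these lists were detected. In bulk tissue, fewer cells of a type and less RNA per cell cannot be told apart.

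By median, the members varied less between replicates than all genes tested, though genes of like signal were not set beside them. The median SD of the members between replicates of a group was 0.091 on the log2 scale, against 0.119 over all genes. Across all 12 arrays, 37 of 38 members stayed within 1 log2 unit (97.4%, against 86.3% of all genes). The exception was Hmox1, which encodes heme oxygenase 1, the stress-inducible enzyme that breaks down heme. Its only detected probe, at chr8:77624406-77624466 of mm9, read 9.11, 9.07 and 9.30 in WT, 9.16, 9.26 and 9.18 in KO, 9.17, 5.86 and 9.25 in exercised WT and 9.03, 9.11 and 9.13 in KE, replicates 1 to 3 in order here and below. The exercised WT replicate 2 spot was 3.17 log2 units or more under each of the other 11 arrays, yet it was not marked as an outlier by the scanner software and was still well above background. The other Hmox1 probe was not well above background on any array, so this reading has no second probe to set beside it.

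**Figure D1:**
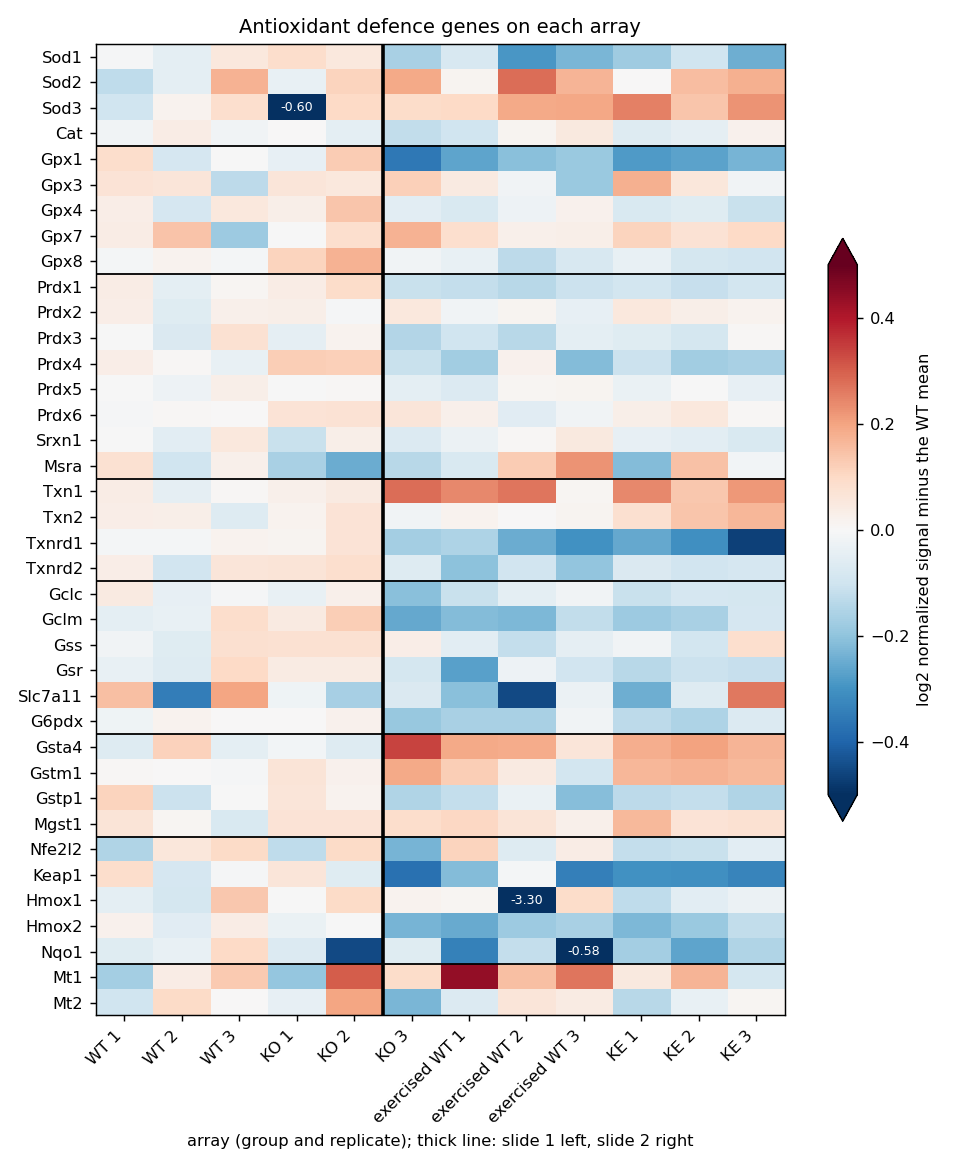
Log2 normalized signal of each of the 38 genes (rows, grouped by role between the thin lines) minus the mean of the 3 WT arrays, on each of the 12 arrays (columns), with slide 1 left and slide 2 right of the thick line. Values beyond 0.5 in size are written in the cell. Gpx1, Txnrd1, Gclm and Hmox2 are bluer on all 7 slide 2 arrays, KO replicate 3 included, than on the 5 slide 1 arrays, and Hmox1 on exercised WT replicate 2 is the darkest cell.

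These 4 promoters are shown because their genes carried the antioxidant response element letters and also separated the slides (below). The windows are the 250 bases before the RefSeq start on GRCm38.p6, given 5′ to 3′ on the strand of the gene. The letters searched were TGACNNNGC on both strands, and the capitals mark the match, which in these 4 lies on the opposite strand and so reads GCNNNGTCA.
Txnrd1 (chr10:82858956-82859205, plus strand): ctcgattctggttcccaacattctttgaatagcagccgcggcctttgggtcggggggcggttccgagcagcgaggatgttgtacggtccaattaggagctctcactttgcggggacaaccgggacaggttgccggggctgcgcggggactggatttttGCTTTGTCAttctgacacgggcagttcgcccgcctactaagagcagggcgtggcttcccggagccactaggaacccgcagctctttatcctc
Gclm (chr3:122245307-122245556, plus strand): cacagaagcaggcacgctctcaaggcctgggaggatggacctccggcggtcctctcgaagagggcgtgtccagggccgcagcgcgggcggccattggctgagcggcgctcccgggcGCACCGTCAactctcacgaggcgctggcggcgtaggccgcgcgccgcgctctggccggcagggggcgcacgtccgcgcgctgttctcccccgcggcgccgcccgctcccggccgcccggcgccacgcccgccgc
Prdx1 (chr4:116685349-116685598, plus strand): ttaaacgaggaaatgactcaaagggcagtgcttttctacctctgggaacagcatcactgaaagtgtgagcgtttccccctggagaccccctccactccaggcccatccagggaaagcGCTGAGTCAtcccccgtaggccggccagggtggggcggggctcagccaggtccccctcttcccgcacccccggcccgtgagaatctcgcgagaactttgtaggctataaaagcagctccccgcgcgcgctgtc
Sod1 (chr16:90220512-90220761, plus strand): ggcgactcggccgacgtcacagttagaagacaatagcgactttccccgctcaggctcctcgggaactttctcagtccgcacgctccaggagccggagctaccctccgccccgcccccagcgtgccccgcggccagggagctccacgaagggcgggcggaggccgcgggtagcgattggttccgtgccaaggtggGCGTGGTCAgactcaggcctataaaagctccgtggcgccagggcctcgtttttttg
Counted from the start, with -1 as the last base before it, the match began at -92 in Txnrd1, -134 in Gclm, -133 in Prdx1 and -56 in Sod1. Txnrd1 has 3 windows in RefSeq and the other 2 held no match. Of the 31 members with a window, 8 held the letters (25.8%), against 11.5% of 27025 genes. The other 4 were G6pdx, Mgst1, Mt2 and Nfe2l2. No window was at hand for Sod3, Prdx6, Msra, Gclc, Gsr, Gsta4 and Hmox1. The metal response letters, TGCACNC or TGCGCNC on either strand, were in 9 of the 31 (29%) against 23.8% of genes, with 3 matches in Mt2 and 1 in Mt1. The 2 searches can overlap each other, as at Gclm. A match is a description of letters, not of binding.

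No member passed an adjusted p of 0.05 in any of the 5 comparisons (limma, Benjamini-Hochberg over all 18266 genes), and neither did any other gene (background 0% in each). By the methods' t-test with the same adjustment the count was also 0 of 38 in each, while 1.13% of all genes passed in exercised WT against WT and 0% in the other comparisons. In KO against WT, 0 of 38 members had an unadjusted p under 0.05, where 5.32% of all genes did. In exercised WT against WT the count was 5 of 38, all lower in exercised WT, against 25.8% of all genes in either direction and 15.9% in the lower direction. In KE against KO it was 3 of 38, all lower in KE, against 19.7% in either direction and 12.3% lower. In KE against exercised WT it was 2 of 38, both higher in KE, against 6.76% in either direction and 2.79% higher. For the interaction, which asks whether swimming changed a gene differently in knockout and wild-type mice, it was 0 of 38 against 7.92%. The screening rule of a 2-fold change together with an unadjusted p no higher than 0.05 was met by 0 members in every comparison. All genes met it at 0.175% in KO against WT, 1.22% in exercised WT against WT, 0.651% in KE against KO, 0.186% in KE against exercised WT and 0.52% in the interaction. Counted in either direction, the share of members with an unadjusted p under 0.05 was under the background in every comparison. In the higher direction, the 2 of 38 in KE against exercised WT were a larger share than the 2.79% of all genes.

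The intervals bound the difference in signal averaged over the probes of each gene, under the fit used. They do not bound single probes, and probes that went opposite ways cancel in the average. The shares of all genes given beside the counts are not matched for signal. The 95% interval lay wholly within a 1.5-fold change either way for 37 of 38 members in KO against WT (83.1% of all genes), 35 in exercised WT against WT (77.9%), 36 in KE against KO (79.3%), 36 in KE against exercised WT (83.3%) and 33 for the interaction (68.6%). Within a 1.25-fold change it lay for 31 members in KO against WT (55.1% of genes) and for 30 in KE against exercised WT (55.4%). The KE and exercised WT arrays all lay on slide 2, whereas KO against WT sets KO replicate 3 on slide 2 against WT arrays on slide 1. With the slide in the fit the 1.25-fold count in KO against WT was 32 of 38 (58.4%), and single members moved, Keap1 from -0.12 to 0.00, Gpx1 from -0.09 to 0.04 and Gclm from -0.03 to 0.08. With the slide in the fit the 1.5-fold count was 32 of 38 in exercised WT against WT (64.1%) and 36 of 38 in KE against KO (74.8%). Median log2 differences of the 38 members were -0.0050 for KO against WT (all genes -0.0097), -0.0564 for exercised WT against WT (-0.0508), -0.0215 for KE against KO (-0.0382), 0.0217 for KE against exercised WT (0.0031) and 0.0147 for the interaction (0.0069).

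**Figure D2:**
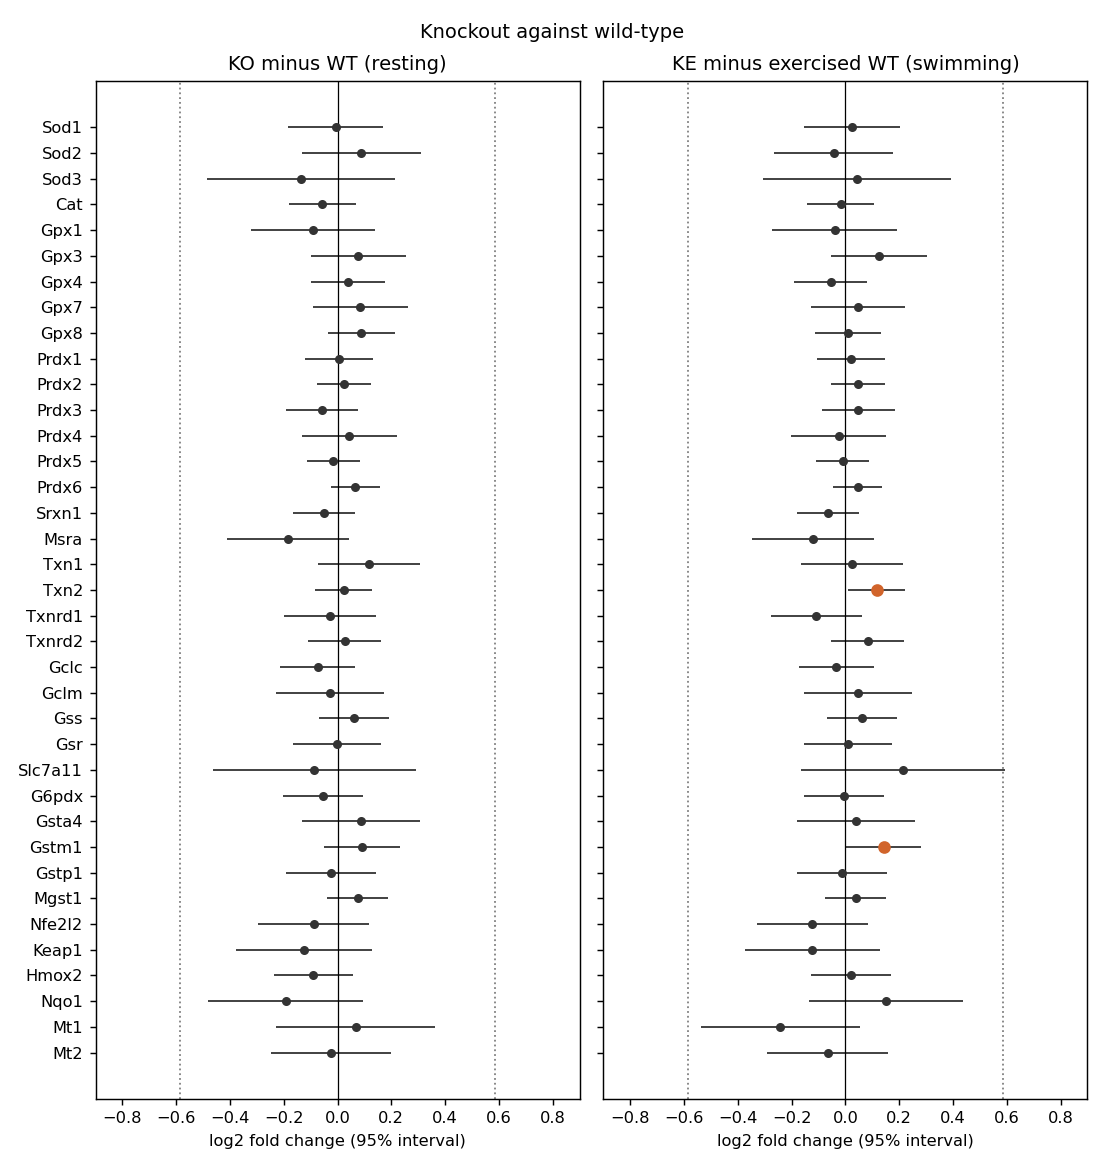
Log2 fold change of knockout over wild-type at rest (left, KO minus WT) and with swimming (right, KE minus exercised WT) for 37 members, Hmox1 left out because of its one low array, with 95% intervals as bars and a 1.5-fold change as dotted lines. Filled orange points have an unadjusted p under 0.05, which are Txn2 and Gstm1 on the right and none on the left.

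The slides moved with the swimming comparisons. In 7 members, Sod1, Gpx1, Gpx8, Prdx1, Txnrd1, Gclm and Hmox2, all 5 slide 1 arrays read above all 7 slide 2 arrays (18.4%, against 11.8% of all genes), and in 0 members did all of them read below (8.49% of all genes). KO replicate 3, a resting animal on slide 2, was under the mean of the other KO arrays in 25 of 38 members, where 61.1% of all genes were. Of the 7 members with separated slides all 7 had a promoter window, and 4 held the response element letters, against 4 of the other 24. Over all tested genes with a window, the letters were in 13.2% of the 1585 with slide 1 wholly higher and in 13.5% of the other 11250, so over all genes the letters did not go with the slide order. With slide as a block in the fit, 1 of 38 members had an unadjusted p under 0.05 in exercised WT against WT (background 6%), and 18 of 38 members kept the sign of their difference (49.9% of all genes). In KE against KO the blocked count was 1 of 38 (background 7.84%) and 20 of 38 kept their sign (63.3%). For KE against exercised WT and the interaction the blocked counts were 2 of 38 (10.1%) and 0 of 38 (10.7%). The blocked KE against KO difference rests on KO replicate 3 as its only resting array, and the blocked exercised WT against WT difference is linked only through the KO group. Without KO replicate 3, slide and swimming coincide, and then 9 of 38 members passed an adjusted p of 0.05 in KE against KO (23.7%, against 21.1% of all genes) and 4 of 38 in exercised WT against WT (10.5%, against 16% of all genes). The part of the slide in these differences was not tested beyond these fits.

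**Figure D3:**
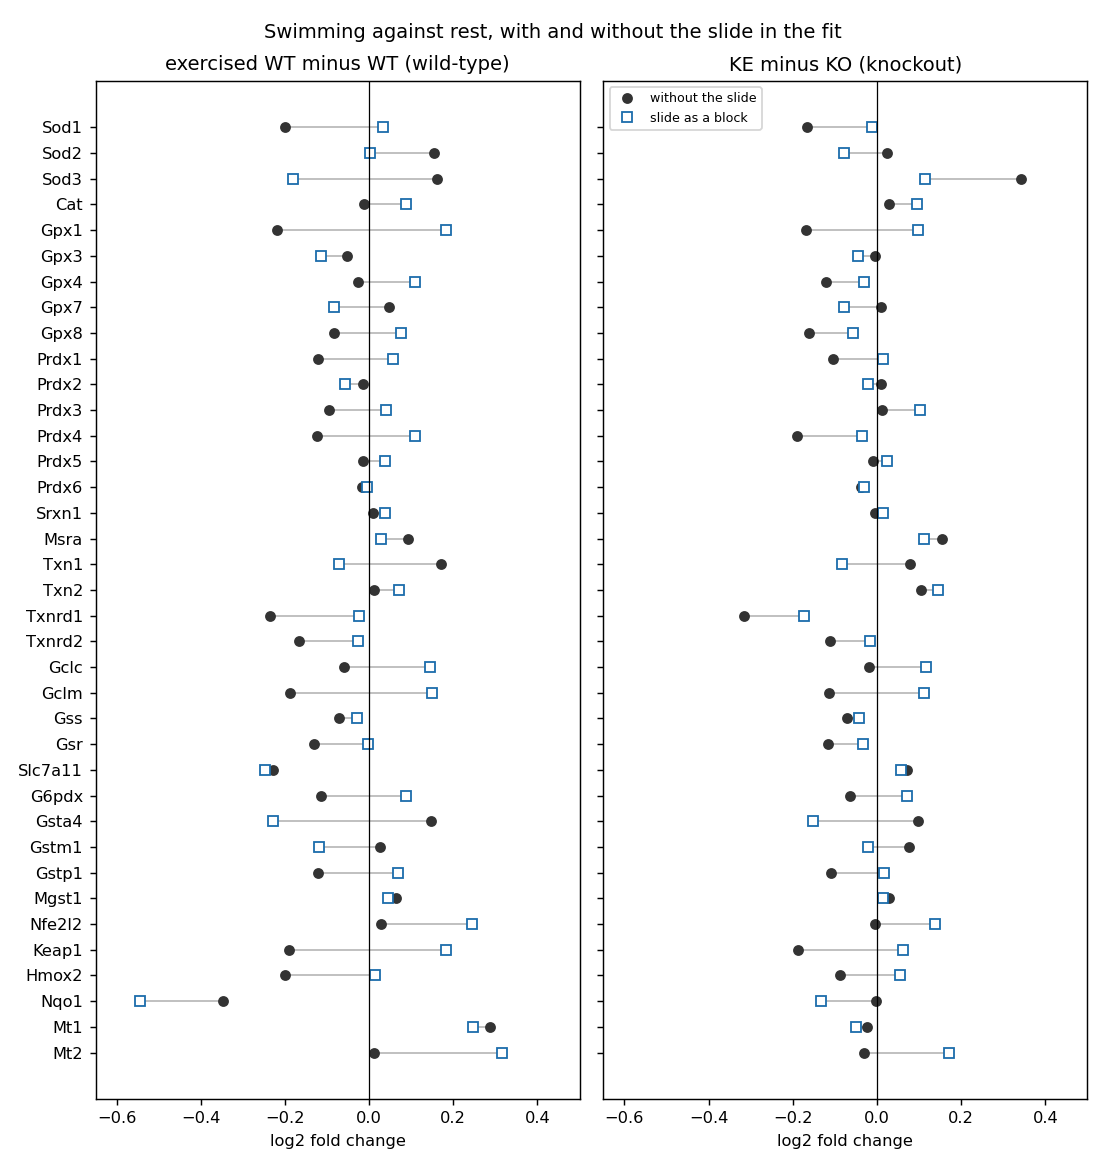
Log2 fold change of swimming over rest in wild-type (left, exercised WT minus WT) and knockout mice (right, KE minus KO) for 37 members, Hmox1 left out. Filled circles come from the fit without the slide and open squares from the fit with slide as a block. Sod1, Gpx1, Gclm and Hmox2 lie left of zero without the slide in wild-type mice and right of it with the slide, while Nqo1 lies left of zero in both.

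In the limma fit of all 12 arrays without the slide, the thioredoxin system held the member with the smallest p of any comparison. Txnrd1, the cytosolic thioredoxin reductase, read 11.45, 11.45 and 11.48 in WT, 11.47, 11.53 and 11.29 in KO, 11.30, 11.21 and 11.16 in exercised WT and 11.20, 11.15 and 10.99 in KE. The 5 slide 1 arrays lay between 11.45 and 11.53, KO replicate 3 lay at 11.29, and the swimming arrays lay between 10.99 and 11.30. The log2 difference was -0.32 in KE against KO (SE 0.0767, unadjusted p 0.00208, adjusted p 0.132) and -0.24 in exercised WT against WT (SE 0.0767, unadjusted p 0.0115, adjusted p 0.116). With the slide in the fit these became -0.17 (unadjusted p 0.0804) and -0.02 (unadjusted p 0.83). The 2 probes of Txnrd1 gave -0.08 and -0.55 in KE against KO, so most of the gene's difference came from one of them. That probe also differed by -0.26 in KE against exercised WT, within slide 2, where the other differed by 0.05.

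Txn2, the mitochondrial thioredoxin, had the smallest p among members in KE against exercised WT. It read 10.42, 10.42 and 10.32 in WT, 10.40, 10.45 and 10.37 in KO, 10.40, 10.39 and 10.40 in exercised WT and 10.47, 10.52 and 10.55 in KE. Every KE array lay above every array of the other groups. The difference was 0.12 in KE against exercised WT (SE 0.0479, 95% interval 0.00974 to 0.223, unadjusted p 0.0353, adjusted p 0.737). In KE against KO it was 0.11 (unadjusted p 0.0527), and 0.14 with the slide in the fit (unadjusted p 0.0457, adjusted p 0.619), the only member under 0.05 in that blocked fit. Its 3 detected probes gave 0.11, 0.06 and 0.18 in KE against exercised WT. In KE against KO the same 3 gave 0.34, -0.03 and 0.00. Txnrd2, the mitochondrial thioredoxin reductase, read 9.57, 9.44 and 9.60 in WT, 9.60, 9.62 and 9.47 in KO, 9.33, 9.44 and 9.34 in exercised WT and 9.47, 9.44 and 9.45 in KE. All exercised WT arrays lay under all WT arrays, exercised WT replicate 2 only just, and the exercised WT against WT difference was -0.17 (unadjusted p 0.0206, adjusted p 0.138), or -0.03 with the slide in the fit. Its probes disagreed in that comparison, with differences of -0.30, -0.25 and 0.05. Txn1, the cytosolic thioredoxin, ranged from 13.01 to 13.34, with a difference of 0.17 in exercised WT against WT that turned to -0.07 with the slide in the fit.

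**Figure D4:**
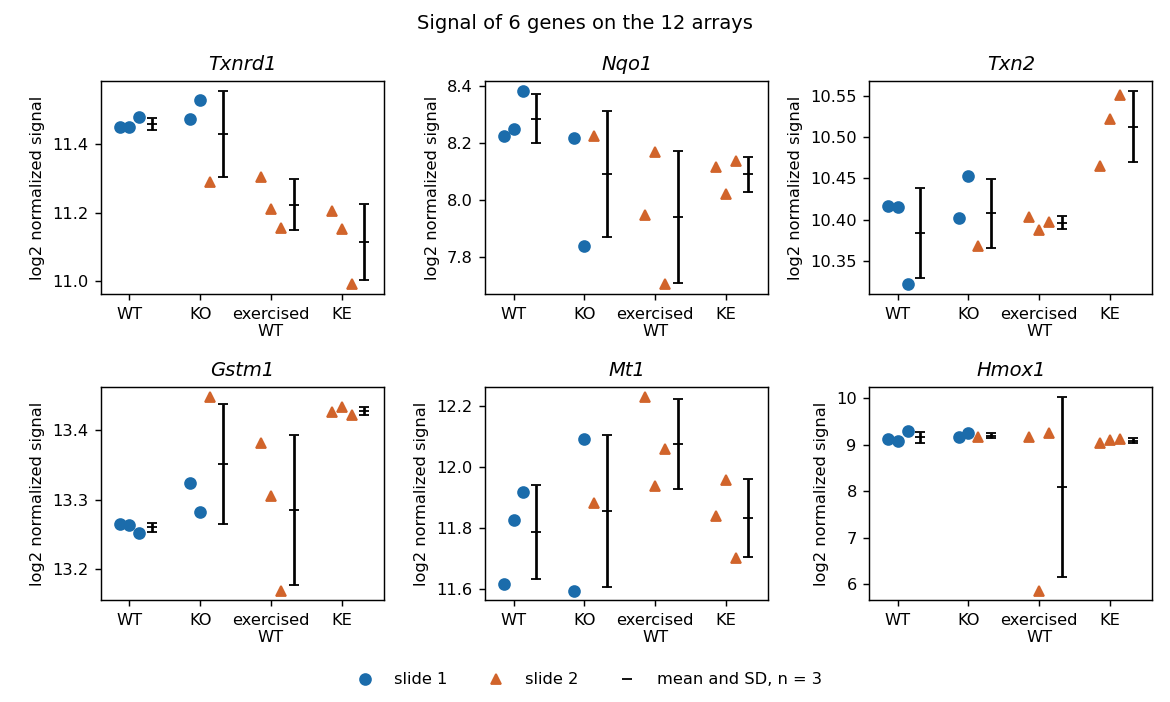
Log2 normalized signal of 6 members on the 12 arrays by group, with slide 1 arrays as circles, slide 2 arrays as triangles, and the mean with SD of the 3 arrays beside them. Each vertical axis has its own range and does not start at 0. KO replicate 3, the only triangle in KO, sits beside the swimming arrays in Txnrd1, and exercised WT replicate 2 stands alone in Hmox1.

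Among Nrf2, Keap1 and the inducible enzymes, Nfe2l2 read 7.95, 8.16 and 8.20 in WT, 7.97, 8.20 and 7.87 in KO, 8.21, 8.04 and 8.14 in exercised WT and 7.98, 7.99 and 8.05 in KE. The groups overlapped in every comparison, and the differences lay between -0.12 (KE against exercised WT, 95% interval -0.33 to 0.0838) and 0.03 (exercised WT against WT). These values average a bright and a dim probe, which gave 0.16 and -0.34 in KO against WT. The dim probe had group means from 5.24 to 5.57, and the cause of the disagreement was not tested. The bright probe was lowest in KE, with a mean of 10.55, against 10.63 for WT, 10.79 for KO and 10.78 for exercised WT. In the fit of all detected probes it differed by -0.24 in KE against KO (unadjusted p 0.0122, adjusted p 0.175; -0.11 with the slide in the fit) and by -0.23 in KE against exercised WT (unadjusted p 0.0141, adjusted p 0.725). Its interaction was -0.39 (SE 0.109, unadjusted p 0.00524, adjusted p 0.529), or -0.45 with the slide in the fit, where the dim probe gave 0.32 (unadjusted p 0.0896). Keap1, the adaptor that marks Nrf2 for degradation, read 12.39, 12.22 and 12.30 in WT, 12.36, 12.24 and 11.93 in KO, 12.08, 12.29 and 11.96 in exercised WT and 12.00, 12.00 and 11.97 in KE. KO replicate 3 was the lowest array, 0.37 under the mean of the other KO arrays, and the exercised WT against WT difference of -0.19 became 0.18 with the slide in the fit. Averaged over its detected probes, neither gene had an unadjusted p under 0.05 in any comparison, blocked or not.

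Nqo1, the quinone reductase often used as a readout of Nrf2 activity, read 8.22, 8.25 and 8.38 in WT, 8.22, 7.84 and 8.22 in KO, 7.95, 8.17 and 7.70 in exercised WT and 8.12, 8.02 and 8.13 in KE. All WT arrays lay above 8.17, the highest exercised WT array, while KO replicate 2 and exercised WT replicate 3 were the lowest. The difference was -0.35 in exercised WT against WT (SE 0.129, unadjusted p 0.0224, adjusted p 0.141) and -0.54 with the slide in the fit (95% interval -1.06 to -0.0266, unadjusted p 0.0414, adjusted p 0.826), the only member under 0.05 there. In KE against KO it was 0.00. The interaction was 0.35 (SE 0.182, 95% interval -0.0599 to 0.751, unadjusted p 0.0869), the smallest interaction p of the members averaged over probes, and its adjusted p was 0.685. Nqo1 rests on 1 probe. Hmox2, the constitutive heme oxygenase, read 12.35, 12.27 and 12.37 in WT, 12.30, 12.33 and 12.10 in KO, 12.08, 12.15 and 12.17 in exercised WT and 12.11, 12.14 and 12.21 in KE. All exercised WT arrays lay under all WT arrays, by -0.20 on average (SE 0.0667, unadjusted p 0.0135, adjusted p 0.121), but KO replicate 3 lay there too, and with the slide in the fit the difference was 0.01. For Hmox1 the exercised WT against WT difference of -1.07 (SE 0.707) became 0.05 without exercised WT replicate 2 (unadjusted p 0.523), and the KE against exercised WT difference of 0.995 became -0.12 (unadjusted p 0.149).

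Of the superoxide dismutases and catalase, only Sod1, the copper-zinc enzyme of the cytosol, had an unadjusted p under 0.05, in exercised WT against WT. It read 12.22, 12.18 and 12.28 in WT, 12.31, 12.28 and 12.06 in KO, 12.14, 11.93 and 12.00 in exercised WT and 12.05, 12.12 and 11.98 in KE. The difference was -0.20 (SE 0.0798, unadjusted p 0.0314, adjusted p 0.16) and 0.03 with the slide in the fit. These Sod1 values average a bright probe, with group means from 16.14 to 16.25, and a dimmer one, from 7.89 to 8.20. In the limma fit of all detected probes the bright one gave -0.09 (unadjusted p 0.109) and the dimmer one -0.31 (unadjusted p 0.0481, adjusted p 0.183). Most of the gene's difference therefore came from the dimmer probe. Sod2, the mitochondrial manganese enzyme, ranged from 12.15 to 12.55 and differed by 0.16 in exercised WT against WT, or 0.00 with the slide in the fit. Sod3, the secreted enzyme, read 9.09 on KO replicate 1 and 9.59 to 9.94 on the other arrays. Its KE against KO difference of 0.34 (unadjusted p 0.055) was 0.11 with the slide in the fit. KO replicate 1 was also the array with the least red blood cell and choroid plexus signal, and the part of cell content in this value was not tested. Cat, which encodes catalase, lay between 10.77 and 10.94 on all arrays, with differences from -0.06 to 0.03.

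Among the glutathione peroxidases, Gpx8, an enzyme of the endoplasmic reticulum, read 9.73, 9.76 and 9.73 in WT, 9.85, 9.91 and 9.72 in KO, 9.70, 9.61 and 9.66 in exercised WT and 9.70, 9.65 and 9.64 in KE. KO replicates 1 and 2 were the highest arrays. On slide 1 alone, KO lay 0.14 above WT (95% interval 0.0357 to 0.249, unadjusted p 0.0145, adjusted p 0.777), the only member under 0.05 in KO against WT with the slide in the fit (background 5.87%), and over all 3 KO arrays the difference was 0.09 (unadjusted p 0.143). In KE against KO it was -0.16 (SE 0.0559, unadjusted p 0.0155, adjusted p 0.183) and -0.06 with the slide in the fit. Gpx3, the secreted glutathione peroxidase, read 12.80, 12.79 and 12.60 in WT, 12.79, 12.79 and 12.85 in KO, 12.78, 12.71 and 12.55 in exercised WT and 12.91, 12.79 and 12.72 in KE. The KE and exercised WT arrays overlapped and differed by 0.13 (95% interval -0.052 to 0.304, unadjusted p 0.146). Gpx1, the abundant cytosolic enzyme, read 13.93 to 14.14 on slide 1 and 13.65 to 13.82 on slide 2. Its exercised WT against WT difference was -0.22 without and 0.18 with the slide in the fit, neither under 0.05. Gpx4, which reduces lipid peroxides in membranes, differed by -0.12 to 0.04 over the 4 pairwise comparisons, and Gpx7, of the endoplasmic reticulum, by 0.01 to 0.09.

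Averaged over the probes of each gene, the peroxiredoxins were the steadiest role between replicates. Prdx6, the 1-cysteine enzyme that also repairs membrane lipids, had the smallest SD of all members at 0.0239, and read 13.86, 13.87 and 13.87 in WT, 13.94, 13.94 and 13.93 in KO, 13.89, 13.81 and 13.85 in exercised WT and 13.90, 13.92 and 13.88 in KE. All KO arrays lay above all WT arrays, as in 3 of 38 members (3.9% of all genes), by 0.07 (95% interval -0.0254 to 0.158, unadjusted p 0.138). By the methods' t-test, which uses the spread of this gene alone, the unadjusted p of Prdx6 was 0.000267 and the adjusted p 0.696. The 2 Prdx6 probes gave 0.13 and 0.00 in KO against WT, so most of that difference came from one of them. Msra, the methionine sulfoxide reductase, read 8.32, 8.15 and 8.27 in WT, 8.08, 8.00 and 8.11 in KO, 8.17, 8.37 and 8.47 in exercised WT and 8.03, 8.39 and 8.23 in KE. All KO arrays lay below all WT arrays, as in 2 of 38 members (4.77% of all genes), by -0.18 (SE 0.102, unadjusted p 0.101), although its 2 probes gave -0.05 and -0.32. Prdx4, the peroxiredoxin of the endoplasmic reticulum, read 11.51, 11.49 and 11.44 in WT, 11.60, 11.60 and 11.37 in KO, 11.30, 11.50 and 11.26 in exercised WT and 11.37, 11.31 and 11.32 in KE. Its KE against KO difference was -0.19 (SE 0.0793, unadjusted p 0.0369, adjusted p 0.23) and -0.04 with the slide in the fit. Srxn1, which encodes sulfiredoxin, the enzyme that reactivates overoxidized peroxiredoxins, read 13.93, 13.88 and 13.99 in WT, 13.82, 13.96 and 13.86 in KO, 13.90, 13.94 and 13.98 in exercised WT and 13.89, 13.88 and 13.86 in KE. All KE arrays lay under all exercised WT arrays, the only member with this order in that direction (9.26% of all genes), by -0.06 (95% interval -0.18 to 0.0507). Prdx1, Prdx2, Prdx3 and Prdx5 had differences between -0.12 and 0.05 in the 4 pairwise comparisons, the lowest being Prdx1 in exercised WT against WT, at 0.06 with the slide in the fit. In that comparison the 2 detected probes went opposite ways for Prdx6 (0.17 and -0.20), Prdx5 (0.12 and -0.15) and Prdx2 (0.14 and -0.17). Their averages therefore cancel part of what the probes showed. With the slide in the fit the same probes gave -0.05 and 0.04, 0.02 and 0.05, and -0.11 and -0.01.

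For glutathione synthesis, recycling and NADPH supply, all 6 members were lower in exercised WT than in WT, from -0.23 (Slc7a11) to -0.06 (Gclc), and none had an unadjusted p under 0.05. The median over all genes was itself -0.0508 there. With the slide in the fit the 6 ranged from -0.25 (Slc7a11) to 0.15 (Gclm). Slc7a11, the cystine importer, read 7.48, 6.98 and 7.52 in WT, 7.31, 7.17 and 7.26 in KO, 7.12, 6.88 and 7.30 in exercised WT and 7.08, 7.26 and 7.59 in KE. It varied more between replicates than any member other than Hmox1, with an SD of 0.227, and one of its 3 detected probes was dim. That probe gave an interaction of 1.24, where the others gave -0.16 and -0.17, so the gene's interaction of 0.30 (unadjusted p 0.24) rested on the dim probe. Gclm, the modifier subunit of the enzyme that limits glutathione synthesis, read 12.18 to 12.35 on slide 1 and 11.97 to 12.15 on slide 2, and its difference in exercised WT against WT was -0.19 without and 0.15 with the slide in the fit. Gclc, its catalytic subunit, and G6pdx, the first enzyme of the pentose phosphate pathway, differed from rest in the same way. Their differences in exercised WT against WT were -0.06 and -0.11 without the slide, and 0.14 and 0.09 with it. Gss, glutathione synthetase, and Gsr, glutathione reductase, differed by -0.07 and -0.13 in exercised WT against WT, and by -0.0287 and -0.0032 with the slide in the fit.

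Of the glutathione transferases, Gstm1 was the second member under 0.05 in KE against exercised WT. It read 13.26, 13.26 and 13.25 in WT, 13.32, 13.28 and 13.45 in KO, 13.38, 13.31 and 13.17 in exercised WT and 13.43, 13.43 and 13.42 in KE. The KE arrays lay within 0.0117 of each other and above every exercised WT array, as in 4 of 38 members (9.85% of all genes), while exercised WT replicate 3 was the lowest of all arrays. The difference was 0.14 (SE 0.0628, 95% interval 0.00221 to 0.282, unadjusted p 0.0471, adjusted p 0.739). Its 2 probes gave 0.15 and 0.13 in that comparison, although the array annotation places one of them on chromosome 5 rather than chromosome 3, and closely related transferase genes may share its signal. Leaving out each of the 12 arrays in turn moved the difference between 0.08 and 0.19. Gsta4, which conjugates lipid aldehydes, ranged from 10.56 to 10.96 with KO replicate 3 highest. Its exercised WT against WT difference was 0.15 without and -0.23 with the slide in the fit. In KE against KO it was 0.10 without and -0.15 with the slide. Mgst1, the microsomal transferase, had differences from 0.03 to 0.07, and Gstp1, the pi class enzyme, from -0.12 to -0.01. The 2 Mgst1 probes went opposite ways in KE against KO (0.18 and -0.12) and in exercised WT against WT (0.15 and -0.03). With the slide in the fit they gave -0.08 and 0.11 in KE against KO, and -0.24 and 0.33 in exercised WT against WT.

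The metallothioneins share the abbreviation of melatonin but bind zinc and copper. Averaged over detected probes, they gave no unadjusted p under 0.05 in the limma fit, with or without the slide. Mt1 read 11.62, 11.83 and 11.92 in WT, 11.60, 12.09 and 11.88 in KO, 12.23, 11.94 and 12.06 in exercised WT and 11.84, 11.96 and 11.70 in KE. All exercised WT arrays lay above all WT arrays, as in 2 of 38 members (13.5% of all genes), by 0.29 (SE 0.133, 95% interval -0.00939 to 0.583, unadjusted p 0.0564). The KE arrays overlapped the exercised WT arrays, with a difference of -0.24 (unadjusted p 0.0983). The 2 probes of Mt1 disagreed there, at -0.52 and 0.03, and the interaction of -0.31 came from the first probe, whose own value was -0.62, while the second gave 0.00. The first was dim, with group means from 7.39 to 7.91, and the second bright, from 16.05 to 16.27. In the limma fit of all detected probes the bright one differed by 0.19 in exercised WT against WT (unadjusted p 0.0222, adjusted p 0.133). In KE against KO it also differed by 0.19 (unadjusted p 0.0229, adjusted p 0.195). With the slide in the fit these became -0.03 and 0.04. Mt2 read 16.08, 16.27 and 16.18 in WT, 16.13, 16.38 and 15.95 in KO, 16.11, 16.24 and 16.22 in exercised WT and 16.04, 16.14 and 16.19 in KE. It differed by -0.07 to 0.01 over the 4 pairwise comparisons, and by 0.32 in exercised WT against WT with the slide in the fit (unadjusted p 0.0539).

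Where a member had several detected probes, these disagreed most in the comparisons that cross the slides. Over the 16 such members, the median range of log2 difference among the probes of 1 gene was 0.23 in exercised WT against WT and 0.23 in KE against KO, but 0.09 in KE against exercised WT and 0.08 in KO against WT. With the slide in the fit the 2 swimming ranges were 0.12 and 0.13. Over all 7920 genes with several probes the ranges were 0.24, 0.22, 0.14 and 0.14 without the slide, and 0.22 and 0.18 for the swimming comparisons with it.

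All 3 arrays of one group lay below all 3 of the other in 9 of 38 members for exercised WT against WT (23.5% of all genes) and in 7 of 38 for KE against KO (14.7%). They lay above in 2 of 38 members for KE against KO (6.51%), which were Txn2 and Sod3. The 2 swimming comparisons have no array in common, but slide 2 holds both swimming groups.

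A further list of 63 antioxidant and Nrf2 pathway genes, 62 of them detected, had 0 under an adjusted p of 0.05 in any comparison (limma). Under an unadjusted p of 0.05 were 3 of 62 in KO against WT (5.32% of all genes), 18 in exercised WT against WT (4 higher and 14 lower, 25.8%), 8 in KE against KO (1 higher and 7 lower, 19.7%), 0 in KE against exercised WT (6.76%) and 4 for the interaction (2 higher and 2 lower, 7.92%). With the slide in the fit these counts were 3 (5.87%), 2 (6%), 1 (7.84%), 4 (10.1%) and 2 (10.7%). Maff, a small Maf protein that pairs with Nrf2, read 6.73, 6.83 and 6.57 in WT, 7.08, 7.41 and 6.62 in KO, 7.01, 6.83 and 6.43 in exercised WT and 6.42, 6.47 and 6.26 in KE. KO replicates 1 and 2 were its highest arrays. Its interaction was -0.70 (SE 0.274, unadjusted p 0.0282, adjusted p 0.602) and -0.91 with the slide in the fit. Txnip, which binds and inhibits thioredoxin, read 8.89, 8.85 and 8.77 in WT, 9.09, 9.63 and 8.68 in KO, 9.11, 8.94 and 8.85 in exercised WT and 8.66, 8.67 and 8.41 in KE. Its interaction was -0.68 (unadjusted p 0.0323, adjusted p 0.603) and -0.90 with the slide in the fit, again with KO replicate 2 the highest array, which also had the most red blood cell and meningeal signal.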

How the data were processed

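RNA of hypothalamus from 12 samples was labelled with Cy3 and hybridised to 1-colour Agilent 8x60K mouse arrays. The authors scanned them and extracted spot intensity values with Agilent Feature Extraction (version 10.7.1.1 in the submitters' processing notes). The deposited processed signals were intensity values already corrected for background by that software, and a second deposited file gave log2 values that the authors had quantile normalized. Their comparison tables hold p-values and fold changes, which were not used, and repeat 24 columns of sample values, which were not used either.

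Here outlier spots were left out, processed signals were put on the log2 scale and quantile normalized, spots of a probe were averaged, and probes that stood well above background on every array of some group (35230 of 56605) were averaged per gene symbol, dim and bright probes with equal weight. A group-means model was fitted to all 18266 genes with limma 3.58.1 in R 4.3.3, with p-values adjusted by the Benjamini-Hochberg method over all genes and 95% intervals per gene. It was tested on simulated data first. The 2 slides, read from the scanner files, entered as a block in an alternative fit. Other alternatives were 75th percentile scaling, normexp correction (offset 50), the authors' table, 2 other detection rules, the brightest probe, outlier spots kept, an unpaired t-test as the methods name it, the replicate number as a block, and leaving out each array. Nothing says that animals or RNA were pooled, and p-values measure only the spread between these 12 samples. The number of arrays limits the precision.

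Members, roles and lists were chosen with earlier results of these data known. Values on all 12 arrays are given for the 4 members with the smallest unadjusted p in each comparison, for Nfe2l2, Keap1, Hmox1, Nqo1, Srxn1, Mt1 and Mt2, and also for Sod1, Maff and Txnip, which, like the bright Nfe2l2 probe, were chosen after their values were seen. The probe values of Mt1, Sod1, Mgst1, Prdx2, Prdx5 and Prdx6, and the Sim1 and Pmch values, were also picked in that way. Neuron, astrocyte, oligodendrocyte, microglia and endothelium marker lists were read too, and none of their means varied by over 0.4 on the log2 scale. Promoter windows came from RefSeq (GRCm38.p6) and probe positions from the array annotation (mm9).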

Additional observations from a re-analysis of the deposited data

How the results depend on the processing

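No setting gave a member an adjusted p under 0.05 except leaving out KO replicate 3. The other values are counts of members with an unadjusted p under 0.05, or log2 fold changes. The share of all genes under 0.05 in the same fit stands in brackets. For exercised WT against WT the count of 5 (25.8%) became 8 with 75th percentile scaling (25.2%), 12 with normexp (28.3%), 8 by the methods' t-test (25.6%) and 1 with the slide block (6%). For KE against KO the count of 3 (19.7%) became 7 with 75th percentile scaling (20.6%), 7 in the authors' table (20.5%), 5 with the brightest probe (20.6%) and 1 with the slide block (7.84%). For KE against exercised WT the count of 2 (6.76%) became 1 with 75th percentile scaling (6.82%), 0 with normexp (8.75%), 0 in the authors' table (7.03%), 1 with no detection filter (6.38%), 1 by the methods' t-test (10.5%), 0 with the replicate block (7%), 1 with the brightest probe (6.56%) and 0 with outlier spots kept (7.06%). For KO against WT the count of 0 (5.32%) became 2, Prdx6 and Msra, by the methods' t-test (3.61%), 1 with the slide block (5.87%) and 1, Gstm1, with the brightest probe (4.95%). For the interaction the count of 0 (7.92%) became 1, Nqo1, with normexp (9.69%) and 1, Nfe2l2, with the brightest probe (7.67%). Nfe2l2 was also the 1 member of the brightest probe in KE against exercised WT.

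Leaving out each array gave 0 to 1 members in KO against WT (4.28 to 8.55% of all genes) and 3 to 11 in exercised WT against WT (17.7 to 33.5%). It gave 2 to 15 in KE against KO (10.5 to 36.4%), 0 to 2 in KE against exercised WT (4.25 to 10.1%) and 0 to 1 for the interaction (5.45 to 10.7%). Exercised WT against WT had 3 without WT replicate 1 (17.7%), 9 without KO replicate 2 (26.7%), 11 without KO replicate 3 (33.5%) and 8 without exercised WT replicate 2 (19.9%). KE against KO had 15 without KO replicate 3 (36.4%) and 5 without KE replicate 1 (14.6%). After adjustment the ranges were 0 to 4 in exercised WT against WT and 0 to 9 in KE against KO, both highest without KO replicate 3 (16% and 21.1% of all genes), and 0 to 0 elsewhere.

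Signs turned for Hmox2 in exercised WT against WT (0.0148 with the slide block), and with the brightest probe for Txnrd2 in exercised WT against WT (0.0537), Txn2 in KE against KO (-0.0287), Mt1 in KE against exercised WT (0.0347) and Slc7a11 in the interaction (-0.16, and -0.17 with probes detected on all 12 arrays). Prdx4 in KE against KO turned to 0.25 with no detection filter, which adds a probe detected on 6 arrays. The cause of the other turns was not tested, beyond the choice of probe. The median over members in exercised WT against WT was 0.0348 with the slide block. Same-numbered samples of different groups correlated at -0.179 to 0.237 in their deviations from group means. Differently numbered samples were not set beside these, so the values cannot decide whether the numbers pair the samples. With the replicate number as a block the counts were 0 in KO against WT (6% of all genes), 6 in exercised WT against WT (25.8%) and 4 in KE against KO (20%). They were 0 in KE against exercised WT (7%) and 0 for the interaction (8.56%). Dim signal limits the Slc7a11 probe detected on 11 arrays.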
